A study of Mus musculus with 6 samples.

Results

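The enzymes that write, maintain and remove 5-methylcytosine were followed through 10 genes in day 10 embryoid bodies from Tet knockout stem cells and in wild-type embryoid bodies. The genes were Tet1, Tet2, Tet3, Tdg, Dnmt1, Dnmt3a, Dnmt3b, Dnmt3l, Uhrf1 and Apobec1, and every array probe whose transcript accession belongs to one of them was kept and is described separately. The arrays name 20806 genes in all. The 10 genes had 19 probes of the 55418 measured, and all 19 were among the 28267 tested probes, those that each array of some line detected well above background. Probe counts per gene were uneven: 4 genes had 1 probe, 3 genes had 2 and 3 genes had 3.

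The groups were TKO_26 and TKO_29, embryoid bodies from independent mouse embryonic stem cell lines of genotype Tet1/2/3 triple knockout, and WT, embryoid bodies from a wild-type line. All lines had a mixed 129/C57BL6 background. Stem cells were kept 2 days as hanging drops without LIF, the cytokine that holds them undifferentiated, and then 8 days in suspension without LIF, and total RNA was measured on 1-colour Agilent arrays after Cy3 labelling. Each line had 2 arrays, called technical replicas in the study's design, and the sources used here do not give whether they share an RNA extract. How the alleles were made, which exons they lack and whether each line is 1 clone are not given either.

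DNMT3A and DNMT3B place new methyl groups on cytosine, helped by DNMT3L, a relative without catalytic activity, and DNMT1, guided by UHRF1, copies the pattern to the new strand after replication. TET enzymes oxidise 5-methylcytosine stepwise, and TDG excises the last oxidised forms so that base excision repair can restore cytosine. APOBEC1 is a cytidine deaminase best known for editing the messenger RNA of apolipoprotein B.

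The 250 bases before the first listed start of 3 genes are shown because these are the members without a knockout allele that stood apart from WT in all 4 TKO arrays. So did 49.7% of all tested probes, so this rule of choice does not mark the genes out. The bases were read from RefSeq, build GRCm38.p6. The capitals mark CG, the site that DNMT and TET enzymes act on, which reads the same on both strands. Dnmt3a lies on the plus strand at chr12:3806730-3806979, Dnmt3l on the plus strand at chr10:78042037-78042286, and Apobec1 on the minus strand at chr6:122602445-122602694.
Dnmt3a: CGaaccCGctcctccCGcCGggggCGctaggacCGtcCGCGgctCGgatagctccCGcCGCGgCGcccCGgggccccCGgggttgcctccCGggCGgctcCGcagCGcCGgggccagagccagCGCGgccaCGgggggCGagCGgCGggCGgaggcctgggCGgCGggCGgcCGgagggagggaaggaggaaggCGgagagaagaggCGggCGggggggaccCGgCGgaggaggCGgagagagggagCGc
Dnmt3l: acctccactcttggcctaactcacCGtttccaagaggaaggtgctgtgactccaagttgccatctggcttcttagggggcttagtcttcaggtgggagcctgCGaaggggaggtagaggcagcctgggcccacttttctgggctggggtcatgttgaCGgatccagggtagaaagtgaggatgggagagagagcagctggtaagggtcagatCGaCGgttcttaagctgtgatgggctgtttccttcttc
Apobec1: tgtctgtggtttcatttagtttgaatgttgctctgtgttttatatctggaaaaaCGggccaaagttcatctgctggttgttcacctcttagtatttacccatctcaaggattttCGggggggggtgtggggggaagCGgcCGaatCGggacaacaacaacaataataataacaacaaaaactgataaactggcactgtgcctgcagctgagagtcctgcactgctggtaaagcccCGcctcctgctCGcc
The Dnmt3a window holds 38 CG sites, the Dnmt3l window 5 and the Apobec1 window 7. Among 32851 listed starts the median is 6, 92.1% hold at least 1, and 1.88% hold as many as Dnmt3a or more. The windows of Dnmt3a and Apobec1 lie inside the outer bounds of their genes, since other annotated transcripts begin further upstream, while that of Dnmt3l lies outside. Dnmt3a and Dnmt3l have 3 listed starts each, and the arrays do not show which start was used. Methylation was not measured here.

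Signals are given as log2 processed signal minus the array's 75th percentile, so 0 is the level of a bright probe and each step of 1 is a doubling; they are compared between arrays for 1 probe, not between probes. From 38.4% to 55.8% of spots on an array were well above background. The numbering of the array outputs puts WT in column 1 and both TKO lines in column 2 of what is taken to be 1 slide. This position was not taken from the sample labels. If it holds, position and genotype cannot be told apart. Among tested markers, 3 of 7 for red cells, 6 of 6 for cardiac muscle, 4 of 6 for endothelium, 2 of 6 for endoderm, 3 of 6 for fibroblasts and 1 of 5 for neuroectoderm fell in both lines by a brightest probe that at least 1 TKO line detected on both arrays. A further 4 red cell, 1 endothelial and 2 endoderm markers were tested only because WT detected them, so they had to be lower. Over all tested probes, 5.93% fell and 4.09% rose in both lines. No marker of these lists rose in both, but Pax6 (1.71) and Sox1 (1.90) of the neuroectoderm list passed upwards in TKO_29. Pax6 was well above background on 1 WT array, and the other Sox1 probe differed by 0.77 on average. Thy1 of the fibroblast list differed by 0.77 in TKO_26 and 0.69 in TKO_29, under 2-fold. In bulk RNA, fewer cells of a type and less RNA per cell cannot be told apart. Among markers of undifferentiated cells, 3 of 10 (Nanog, Sox2 and Tcl1) rose in both lines and none passed downwards, but the other probe of Nanog differed by -0.15 on average, and Zfp42 differed by -0.98 in TKO_26 and -0.93 in TKO_29. Of 6 germline markers, 1 that WT also detected on both arrays rose in both lines, and 3 were tested only because the TKO lines detected them.

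Of the 19 probes, 5 differed from WT in TKO_26 (4 lower, 1 higher), and the same 5 did in TKO_29. A difference counts here when the Benjamini-Hochberg adjusted p of limma, over all tested probes, was under 0.05 and the change at least 2-fold. The background is 12.7% of all tested probes in TKO_26 (7.11% lower, 5.58% higher) and 20.2% in TKO_29 (10.8% lower, 9.4% higher). The share that passed in both lines the same way was 10.0% of tested probes. Of the 5 probes, 1 of Tet1, both of Tet2 and 1 of Tet3 were lower, and Apobec1 was higher. A sixth probe passed in TKO_29, Tet3 A_51_P199339, but it entered the tests only because WT detected it, so it had to be lower and is not read against the background. These p-values compare the lines and rest on the spread between arrays of a line. With each line averaged first, giving 2 TKO lines against 1 WT line, none of the 19 passed (adjusted p 0.157 to 0.983; background 0.746%), and 6 of 19, that Tet3 probe among them, had an unadjusted p under 0.05, as had 17.3% of all tested probes.

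**Figure D1:**
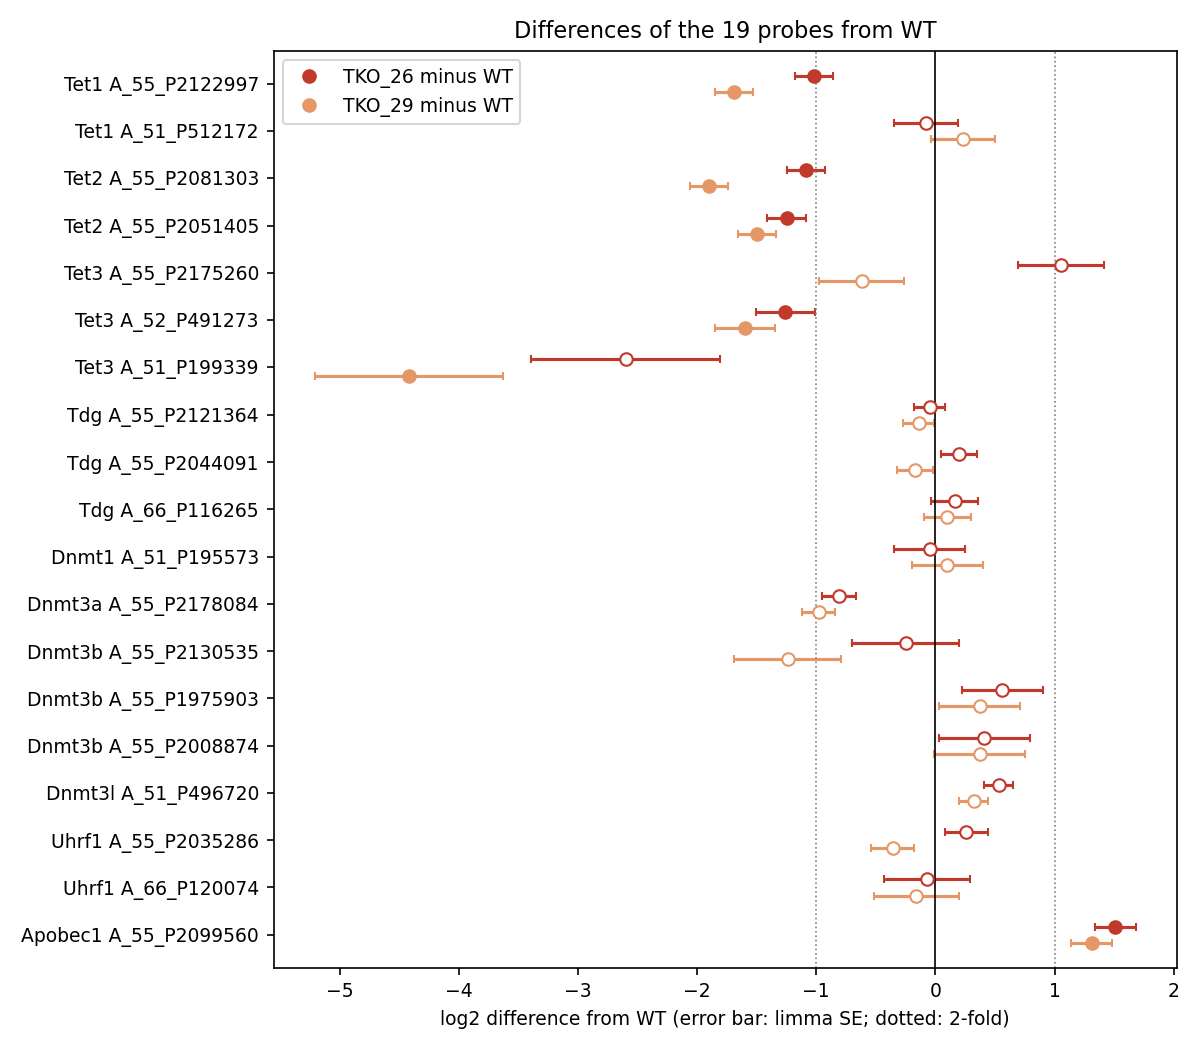
Difference from WT of each of the 19 probes on the log2 scale, with TKO_26 above TKO_29 for each probe, limma standard errors as bars and dotted lines at 2-fold. Filled points passed the threshold: 4 lower and 1 higher in TKO_26, and 5 lower and 1 higher in TKO_29, where the fifth is the Tet3 probe detected in WT only.

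The Tet genes are the targets of the knockout. A probe outside the deleted part of an allele does not check it, and the place of each probe relative to the deletions was not analysed here. Of their 7 probes, the same 4 fell in both lines, leaving aside the 1 detected in WT only.

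Tet1, the dioxygenase most tied to embryonic stem cells, has 2 probes, which differed. Probe A_55_P2122997 read -2.01 and -2.17 in TKO_26, -2.69 and -2.81 in TKO_29, and -0.93 and -1.21 in WT. All 4 TKO arrays lay below both WT arrays. It fell by 1.02 in TKO_26 (SE 0.16; 2.03-fold lower; limma adjusted p = 0.0154), a value at the edge of the 2-fold minimum, and by 1.69 in TKO_29 (SE 0.16; 3.22-fold lower; adjusted p = 0.00342). In TKO_26, 8.7% of tested probes were as low or lower relative to WT, and in TKO_29 5.81%. The TKO_29 call held under all 14 alternatives of processing. The TKO_26 call was lost under 7 of 14, among them leaving out WT replicate 1 (a difference of -0.88, adjusted p = 0.0646) or TKO_26 replicate 2 (-0.94, adjusted p = 0.0504).

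Tet1 probe A_51_P512172 read -4.74 and -4.90 in TKO_26, -4.76 and -4.26 in TKO_29, and -5.03 and -4.45 in WT. The 3 lines overlapped. Its difference from WT was -0.08 in TKO_26 (95% interval -0.79 to 0.63; limma adjusted p = 0.859) and 0.23 in TKO_29 (-0.47 to 0.94; adjusted p = 0.528). The first Tet1 probe stood above the second by 2.73 on both TKO_26 arrays, by 2.06 and 1.45 on the TKO_29 arrays, and by 4.10 and 3.25 on the WT arrays. The Tet1 probes therefore changed unequally.

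Both probes of Tet2, the TET enzyme best known from blood, fell. Probe A_55_P2081303 read -3.85 and -3.77 in TKO_26, -4.73 and -4.51 in TKO_29, and -2.84 and -2.59 in WT. It fell by 1.09 in TKO_26 (SE 0.16; 2.13-fold lower; limma adjusted p = 0.0127) and by 1.90 in TKO_29 (SE 0.16; 3.74-fold lower; adjusted p = 0.00259). Neither TKO line overlapped WT, and TKO_29 was the lower of the lines. The TKO_29 call held under all 14 alternatives, and that of TKO_26 was lost under 4, among them leaving out WT replicate 2 (-0.97) or TKO_26 replicate 1 (-1.05).

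Tet2 probe A_55_P2051405 read -5.95 and -5.90 in TKO_26, -6.28 and -6.07 in TKO_29, and -4.81 and -4.55 in WT. Again all 4 TKO arrays were below both WT arrays. It fell by 1.25 in TKO_26 (SE 0.16; 2.38-fold lower; limma adjusted p = 0.00902) and by 1.50 in TKO_29 (SE 0.16; 2.83-fold lower; adjusted p = 0.00432). The distance between the Tet2 probes moved less than that between the Tet1 probes: 2.11 and 2.13 in TKO_26, 1.55 and 1.56 in TKO_29, and 1.97 and 1.95 in WT. With the authors' matrix values the differences were -0.99 in TKO_26 and -0.96 in TKO_29, under 2-fold.

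**Figure D2:**
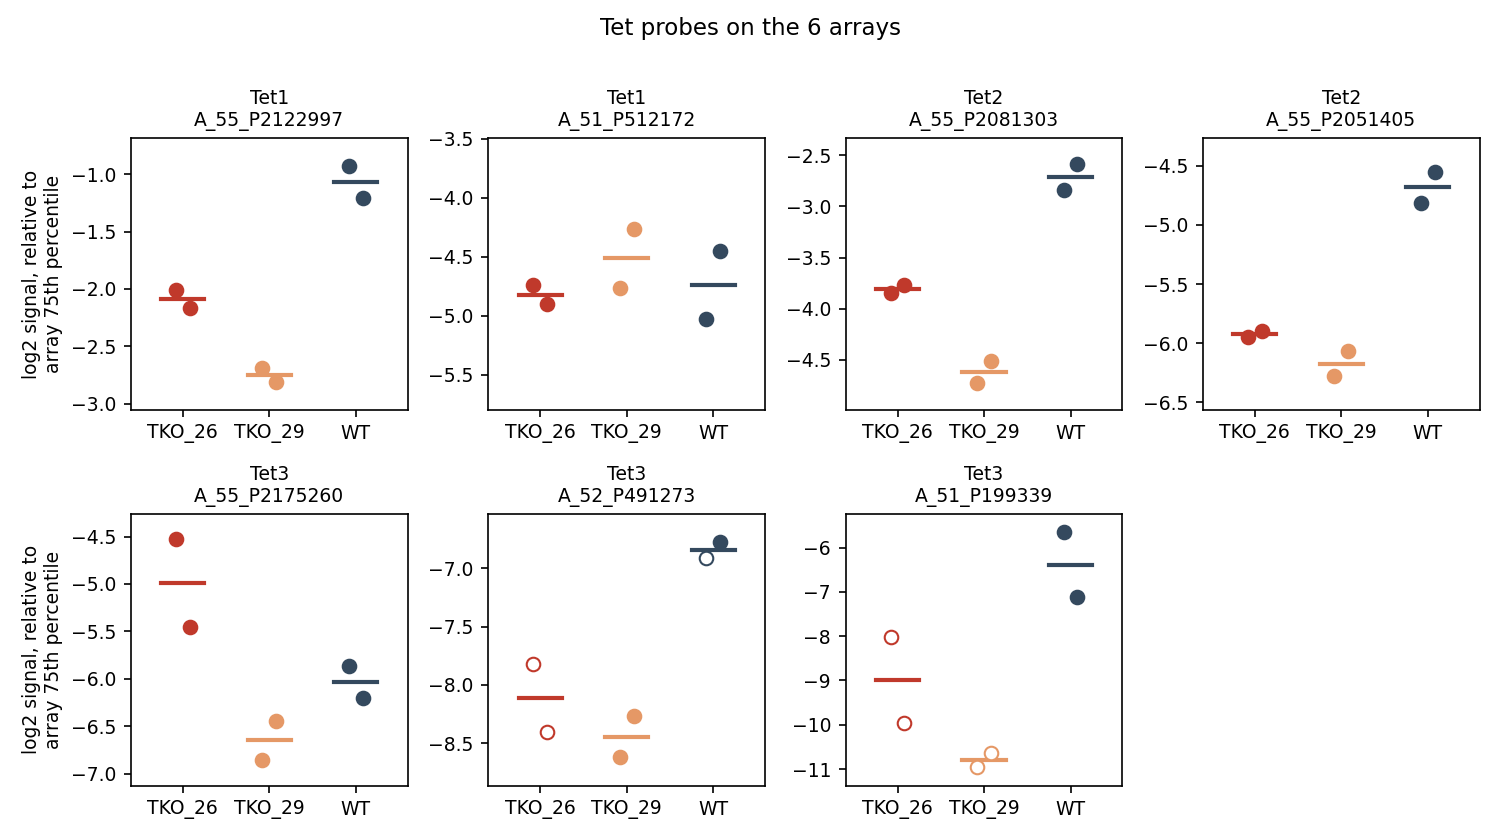
Signals of the 7 Tet probes on the 6 arrays (log2 relative to the array's 75th percentile), with TKO_26, TKO_29 and WT from left to right in each panel, 1 point per array and a bar at the mean of 2. Open symbols are arrays on which the probe was not well above background, and the panels have their own y ranges. Tet1 A_55_P2122997 and both Tet2 probes are lower on all 4 TKO arrays, while Tet3 A_55_P2175260 lies above WT in TKO_26 and below it in TKO_29.

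Tet3, the TET enzyme of the oocyte and zygote, has 3 probes that moved in different ways. Probe A_55_P2175260 read -4.53 and -5.45 in TKO_26, -6.86 and -6.44 in TKO_29, and -5.87 and -6.20 in WT. Both TKO_26 arrays lay above, and both TKO_29 arrays below, the WT arrays. The difference from WT was 1.05 in TKO_26 (95% interval 0.12 to 1.98; limma adjusted p = 0.106) and -0.62 in TKO_29 (-1.55 to 0.31; adjusted p = 0.225), and neither passed. Without TKO_26 replicate 2 the TKO_26 difference was 1.51, and without TKO_26 replicate 1 it was 0.59.

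Tet3 probe A_52_P491273 read -7.82 and -8.40 in TKO_26, -8.62 and -8.27 in TKO_29, and -6.91 and -6.78 in WT. It was well above background on neither TKO_26 array, on both TKO_29 arrays and on 1 WT array. All 4 TKO arrays were lower. A bound sets the brighter mean against the lowest signal well above background. In TKO_26 this gave 1.22-fold lower (limma adjusted p = 0.0280). The WT mean includes replicate 1, which was not well above background, so 1.22 is not a firm minimum. With normexp background correction the TKO_26 difference was -0.35. In TKO_29 the probe fell by 1.60 (SE 0.25; 3.03-fold lower; adjusted p = 0.0106). The call was lost under 9 of 13 alternatives in TKO_26, and under 4 of 13 in TKO_29, among them leaving out TKO_29 replicate 1.

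Tet3 probe A_51_P199339 read -8.01 and -9.95 in TKO_26, -10.96 and -10.63 in TKO_29, and -5.66 and -7.11 in WT. Both WT arrays, but no TKO array, detected it well above background. It was tested only because WT detected it, so its p-values support nothing and it is given as a description: at least 1.68-fold lower in TKO_26 and at least 6.22-fold lower in TKO_29.

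Tdg encodes the glycosylase that acts after the TET enzymes, and none of its 3 probes passed in either line. Probe A_55_P2121364 read -3.13 and -3.22 in TKO_26, -3.20 and -3.32 in TKO_29, and -3.06 and -3.18 in WT. The difference was -0.05 in TKO_26 (95% interval -0.39 to 0.29) and -0.14 in TKO_29 (-0.47 to 0.20). For A_55_P2044091 the differences were 0.20 (-0.18 to 0.59) in TKO_26 and -0.17 (-0.55 to 0.22) in TKO_29. For the dimmest, A_66_P116265, they were 0.16 (-0.35 to 0.67) and 0.10 (-0.41 to 0.60), with TKO_26 replicate 1 not well above background. The limma adjusted p of the 3 probes was between 0.382 and 0.804, and every interval lies within a 2-fold change either way. The signs of the brightest probe turned with the authors' matrix values, to 0.28 in TKO_26 and 0.10 in TKO_29.

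The de novo methyltransferase Dnmt3a had lower signal in both TKO lines. Probe A_55_P2178084 read -2.55 and -2.49 in TKO_26, -2.68 and -2.71 in TKO_29, and -1.82 and -1.61 in WT. All 4 TKO arrays lay below both WT arrays, with little spread within a line. The difference was -0.81 in TKO_26 (SE 0.14; 1.75-fold lower; limma adjusted p = 0.0186) and -0.98 in TKO_29 (SE 0.14; 1.98-fold lower; adjusted p = 0.00796). Both had an adjusted p under 0.05 but missed the 2-fold minimum. TKO_29 reached that minimum with normexp background correction (-1.07), with the authors' matrix values (-1.02) and without WT replicate 1 (-1.09). With 1 array left out the difference ranged from -0.91 to -0.70 in TKO_26 and from -1.09 to -0.88 in TKO_29. With no filter on dim probes the limma adjusted p in TKO_26 was 0.19. In TKO_26, 11.7% of tested probes were as low or lower relative to WT, and in TKO_29 16.6%. The difference was -0.89 on line averages (adjusted p = 0.297). Without the fold minimum 7 of the 19 probes passed in TKO_26 and 7 in TKO_29 (there with the Tet3 probe detected in WT only), against 21.0% and 35.1% of all tested probes.

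Dnmt3b, the other de novo methyltransferase, was bright enough to saturate. Probe A_55_P2130535 was saturated on 5 of 6 arrays, both of TKO_26, both of TKO_29 and WT replicate 2, so no difference is read from it. Its signals were 3.16 and 2.44 in TKO_26, 1.31 and 2.32 in TKO_29, and 3.31 and 2.79 in WT. The lowest saturated signal differed by array: 2.84 and 2.28 in TKO_26, 1.16 and 2.12 in TKO_29, and 3.38 and 2.40 in WT. The ceiling was lowest on TKO_29 replicate 1, the brightest array, where this probe also read lowest.

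Dnmt3b probe A_55_P1975903 read 2.46 and 2.16 in TKO_26, 1.64 and 2.59 in TKO_29, and 1.84 and 1.67 in WT. It was saturated on both TKO_29 arrays, whose values lie on either side of WT and are only lower limits, so no fold is given for TKO_29. The TKO_26 difference of 0.56 did not pass (95% interval -0.33 to 1.45; limma adjusted p = 0.309). Dnmt3b probe A_55_P2008874 read 1.77 and 2.46 in TKO_26, 1.64 and 2.50 in TKO_29, and 1.58 and 1.83 in WT. It too was saturated on both TKO_29 arrays, with no fold given, and its TKO_26 difference was 0.41 (-0.58 to 1.39; adjusted p = 0.499).

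**Figure D3:**
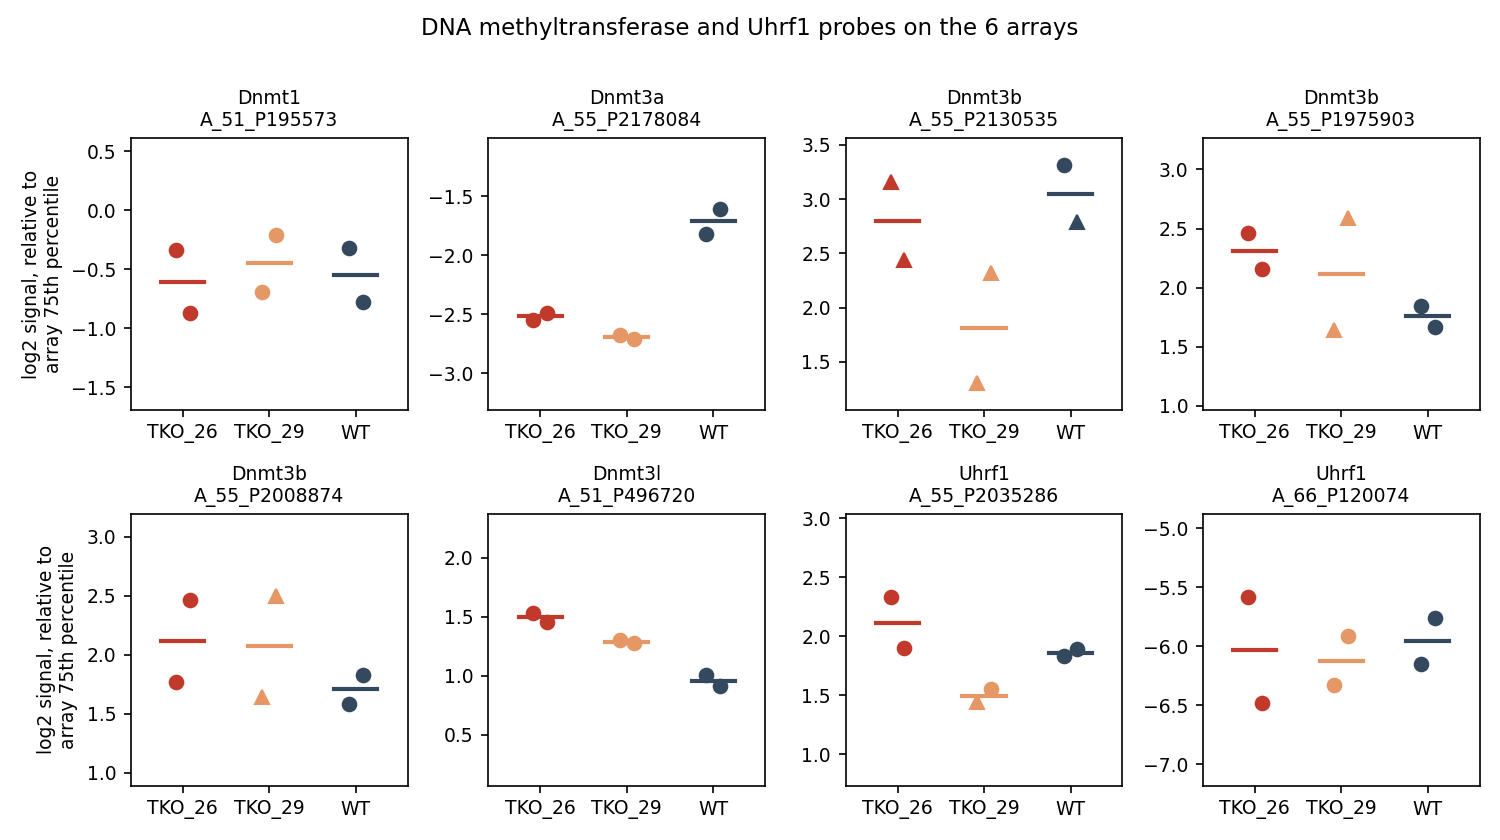
Signals of the Dnmt and Uhrf1 probes on the 6 arrays (log2 relative to the array's 75th percentile), with TKO_26, TKO_29 and WT from left to right, 1 symbol per array and a bar at the mean of 2. Triangles are saturated spots, and panels have their own y ranges. Dnmt3a is lower and Dnmt3l higher on all 4 TKO arrays, and 3 panels of Dnmt3b hold saturated spots.

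Dnmt3l, the cofactor of the de novo enzymes and a gene of undifferentiated and germ cells, was somewhat brighter in both TKO lines. Probe A_51_P496720 read 1.53 and 1.46 in TKO_26, 1.30 and 1.28 in TKO_29, and 1.01 and 0.91 in WT. The lines did not overlap, with TKO_26 highest and WT lowest. The difference was 0.53 in TKO_26 (SE 0.12; 95% interval 0.21 to 0.85; 1.44-fold; limma adjusted p = 0.0418) and 0.32 in TKO_29 (SE 0.12; 0.01 to 0.64; 1.25-fold; adjusted p = 0.0942). Neither reached 2-fold. The mean of 10 markers of undifferentiated cells was 0.34 and 0.30 on the TKO_26 arrays, -0.06 and 0.17 on the TKO_29 arrays, and -0.54 and -0.52 on the WT arrays, with 2 of the 10 saturated on both TKO_29 arrays. Their part in the Dnmt3l values was not tested. A difference as high as that of Dnmt3l or higher was seen for 22.1% of tested probes in TKO_26 and 33.2% in TKO_29. The TKO_26 limma adjusted p of Dnmt3l was 0.092 with normexp, 0.196 with quantile normalisation and 0.32 with no filter on dim probes. It was 0.0885 with the replicate block and 0.05 with an intensity trend. It stayed lower with the percentile over all probes (0.0352), the authors' matrix values (0.0258) and only probes well above background on all arrays (0.0228).

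For the maintenance enzymes no probe passed. Dnmt1 probe A_51_P195573 read -0.34 and -0.87 in TKO_26, -0.69 and -0.21 in TKO_29, and -0.32 and -0.78 in WT. The lines overlapped, and the arrays of a line differed by more than the line means did. The difference was -0.05 in TKO_26 (95% interval -0.82 to 0.71; limma adjusted p = 0.914) and 0.10 in TKO_29 (-0.66 to 0.87; adjusted p = 0.804), and its sign in TKO_26 turned with the scaling (0.03 with the percentile taken over all probes).

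Uhrf1, which brings DNMT1 to hemimethylated DNA, has a bright and a dim probe. The bright one, A_55_P2035286, read 2.33 and 1.90 in TKO_26, 1.44 and 1.55 in TKO_29, and 1.83 and 1.89 in WT, with TKO_29 replicate 1 saturated. Both TKO_26 arrays lay above the WT arrays and TKO_29 replicate 2 below them, while the value of TKO_29 replicate 1 is only a lower limit. The difference from WT was 0.26 in TKO_26 (95% interval -0.21 to 0.73; limma adjusted p = 0.368) and, with the saturated value as read, -0.36 in TKO_29 (-0.84 to 0.11; adjusted p = 0.172). The sign turned with the authors' matrix values, to -0.05 in TKO_26 and 0.26 in TKO_29. Probe A_66_P120074 overlapped between the lines, with differences of -0.07 (-1.01 to 0.86) in TKO_26 and -0.16 (-1.10 to 0.77) in TKO_29. Both genes are most active in dividing cells. Of 11 tested proliferation markers none was called in both lines, beside 10.0% of all tested probes. Their mean was 0.80 and 0.65 in TKO_26, 0.19 and 0.69 in TKO_29, and 0.60 and 0.51 in WT, with 3 saturated on both TKO_29 arrays.

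Apobec1 was the one member that rose in both TKO lines. Probe A_55_P2099560 read -3.95 and -4.13 in TKO_26, -4.26 and -4.21 in TKO_29, and -5.36 and -5.73 in WT. All 4 TKO arrays lay above both WT arrays, and the TKO lines were close to each other. It rose by 1.51 in TKO_26 (SE 0.17; 2.85-fold higher; limma adjusted p = 0.00706) and by 1.31 in TKO_29 (SE 0.17; 2.48-fold higher; adjusted p = 0.0073). In TKO_26, 3.87% of tested probes were as high or higher relative to WT, and in TKO_29 7.33%. The TKO_29 call was lost under 4 of 14 alternatives. Among them were leaving out TKO_29 replicate 1 (a difference of 1.34) or TKO_29 replicate 2 (1.28), and normexp background correction (0.88). The TKO_26 call was lost under 1 of 14, with no filter on dim probes (limma adjusted p = 0.0792).

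Apobec1 is also expressed in macrophages and gut epithelium of adult mice. Of 10 macrophage and myeloid markers 4 could be tested, 1 (Csf1r) fell in both lines, and none rose in both. Over all tested probes 5.93% fell and 4.09% rose in both. The other Csf1r probes differed by -0.28 and -0.35 on average. Fcgr3, named after its values were seen, read higher in both TKO lines, at least 2.25-fold in TKO_29. Neither WT array and only 1 TKO_26 array detected it well above background, so no fold is given for TKO_26. It was tested only because TKO_29 detected it, so it had to be higher there and its p-values support nothing. The mean of the 4 was -4.99 and -4.55 in TKO_26, -5.14 and -4.86 in TKO_29, and -4.91 and -4.77 in WT. The defining markers Ptprc, Adgre1, Lyz2, Tyrobp and Spi1 were not above background enough to be tested. The part of such cells in the Apobec1 values was not tested.

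**Figure D4:**
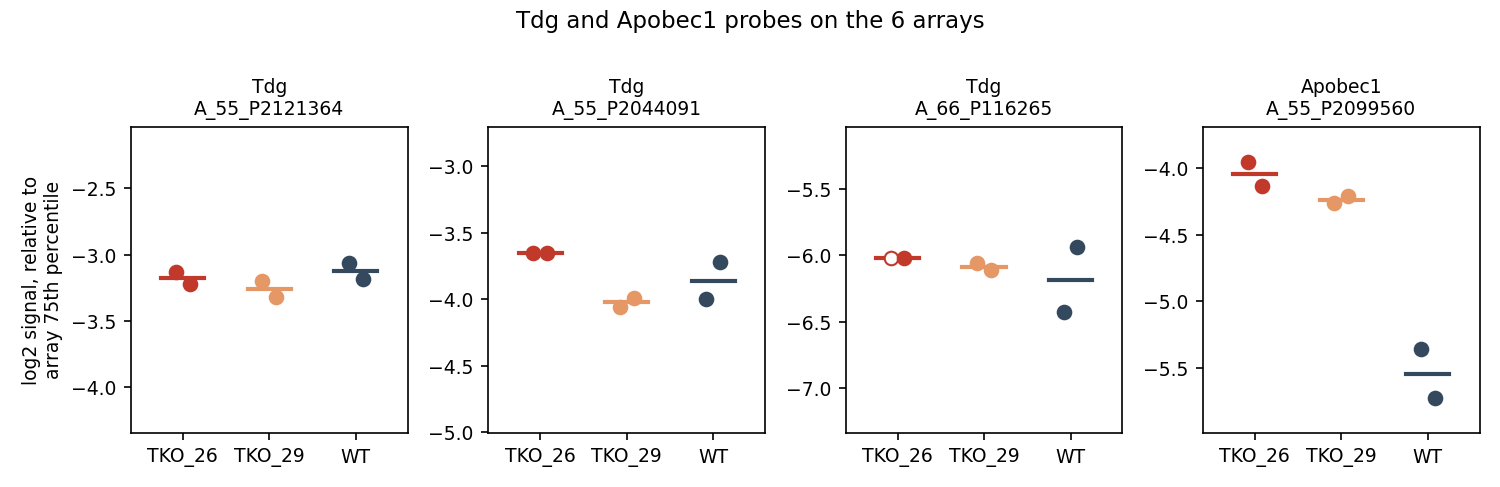
Signals of the 3 Tdg probes and the Apobec1 probe on the 6 arrays (log2 relative to the array's 75th percentile), with TKO_26, TKO_29 and WT from left to right, 1 point per array and a bar at the mean of 2. The open symbol is an array on which the probe was not well above background, and panels have their own y ranges. Tdg signals lie together, and Apobec1 is higher on all 4 TKO arrays.

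Between the TKO lines, no member passed. The TKO_29 minus TKO_26 differences had limma adjusted p-values from 0.0895 to 0.954 (background 0.428% of tested probes), and 4 of 19 had an unadjusted p under 0.05, as had 22.5% of all tested probes. The lowest was Tet2 A_55_P2081303, with a log2 difference of -0.81. The Tet1 probe that fell differed by -0.66 (adjusted p = 0.115) and Apobec1 by -0.20 (0.501).

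The share of member probes whose arrays did not overlap with WT was near that of all tested probes or under it. TKO_26 and WT did not overlap for 12 of 19 probes and 62.7% of all tested probes, TKO_29 and WT for 12 of 19 and 78.3%, and all 4 TKO arrays and WT for 8 of 19 and 49.7%. The 8 were 5 Tet probes, that detected in WT only among them, Dnmt3a, Dnmt3l and Apobec1. The median difference of the 19 probes was -0.05 in TKO_26 and -0.17 in TKO_29, beside 0.04 and -0.03 over all tested probes.

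Few genes of the wider pathway were called in both lines by their brightest probe. Of 21 tested partners and cofactors, 2 rose in both lines and none fell; of 14 base excision repair genes 1 rose; of 19 genes that supply methyl donors and 2-oxoglutarate 1 rose; and of 8 tested deaminases and Gadd45 genes and 9 readers of methylated DNA none was called in both. Each gene stands here by its brightest probe. That probe was saturated on both TKO_29 arrays for 5 partners, 1 repair gene, 1 supply gene and 1 reader. Their TKO_29 signals are only lower limits, so a rise there could go unseen. Other tested probes, named after their values were seen, were higher for some genes. On average they differed by 1.12 and 2.04 for Hdac1, whose brightest, saturated probe differed by -0.21. They differed by 1.22 for Kdm2b, 1.11 for Mat2a and 1.25 for Shmt1, but by -0.01 for Ogt and -0.06 for Zfp57. The counts do not include these probes. The background is 4.09% of tested probes higher and 5.93% lower in both lines. List medians (TKO_26, then TKO_29) were 0.26 and 0.09 for partners, 0.23 and 0.29 for repair, and 0.12 and 0.59 for supply. They were 0.32 and 0.40 for deaminases, and -0.56 and -0.85 for readers. The TKO_29 median of readers is the value of Mbd3, saturated on both TKO_29 arrays, so it rests on a lower limit. The other tested probes of Mbd1, Mbd2 and Mbd3 differed by 0.03, 0.38 and 0.44 on average, and that of Zbtb4 by -0.75.

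The partners that rose are both genes of the early embryo and germ cells. Dppa3, known to protect maternal DNA from demethylation in the zygote, read -0.74 and -0.98 in TKO_26, -1.36 and -1.25 in TKO_29, and -3.54 and -3.34 in WT. It was 6.0-fold higher in TKO_26 (limma adjusted p = 0.0015) and 4.41-fold higher in TKO_29 (adjusted p = 0.00191). Prdm14, a regulator that keeps de novo methyltransferases low in naive stem cells, read -2.52 and -2.38 in TKO_26, -2.77 and -2.88 in TKO_29, and -4.36 and -4.46 in WT. It was 3.88-fold higher in TKO_26 (adjusted p = 0.00187) and 3.0-fold higher in TKO_29 (adjusted p = 0.0026). Nanog, Sox2 and Tcl1 rose in the same lines, as described above, and their part in these values was not tested.

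In base excision repair, Nthl1, a glycosylase for oxidised pyrimidines, read -1.07 and -1.16 in TKO_26, -0.91 and -0.90 in TKO_29, and -2.58 and -2.21 in WT. It was 2.43-fold higher in TKO_26 (limma adjusted p = 0.00981) and 2.81-fold higher in TKO_29 (adjusted p = 0.00499). Mtr, the methionine synthase that renews the methyl donor, was 2.42-fold higher in TKO_26 (adjusted p = 0.00891) and 2.08-fold higher in TKO_29 (adjusted p = 0.0101). Among readers the largest difference on the mean of both lines was that of Mbd1, at -0.89 in TKO_26 (adjusted p = 0.0182) and -1.17 in TKO_29 (adjusted p = 0.00641), while its other probe differed by 0.03 on average.

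**Figure D5:**
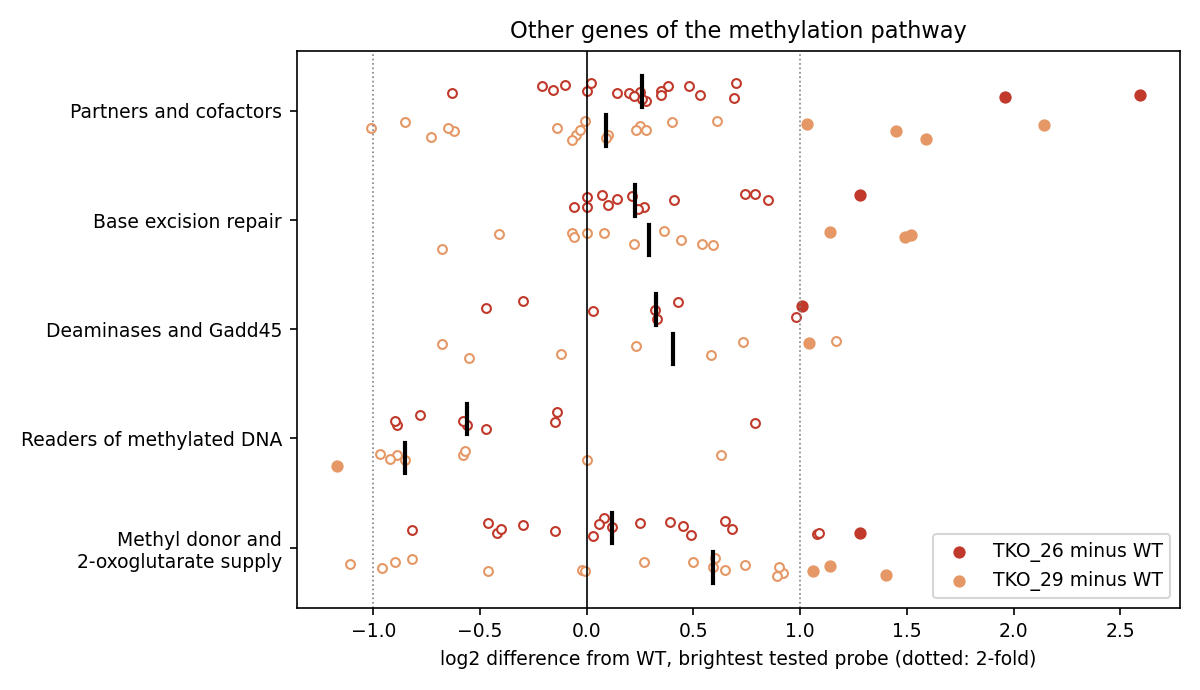
Difference from WT (log2) of the brightest probe of each gene in 5 lists, for TKO_26 and TKO_29. Each point is a gene, filled where it passed the threshold, black ticks are list medians, and dotted lines mark 2-fold. Genes saturated on both TKO_29 arrays are drawn as read. The filled TKO_26 points of the partners are Dppa3 and Prdm14. The readers have negative medians (-0.56 in TKO_26 and -0.85 in TKO_29), that of TKO_29 being the value of the saturated Mbd3 probe.

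For each member, the genes whose signal over the 6 arrays ran closest were found among 11547 genes well above background on all arrays, after centring each on its mean. The root mean square distance was 0.09 log2 units for Tet1 with Cfc1 and Itpr3, and 0.16 for Tet2 with Kcnh2. For Tet3 it was 0.22 with Ptch1, a looser likeness. Dnmt3a was closest to Nup62cl at 0.05, Dnmt1 to Tcf7l1 at 0.06, Dnmt3l to Cpt1a and Slc5a6 at 0.03, Tdg to Ube3c at 0.02, Uhrf1 to Fam24b at 0.03, and Apobec1 to Fam178b and Prelid3a at 0.08. A flat pattern finds close neighbours easily, so the distances are not comparable between members. The closest to Dnmt3b, Hnrnpa3 and Hspd1 at 0.02, follow a saturated probe and hold the shape of the ceiling.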

How the data were processed

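Per the file headers, Feature Extraction 10.5.1.1 wrote the scanner files from an mm9 design, with spot intensity as a background-subtracted processed signal that is not normalised between arrays. A matrix of log2 values was deposited too, by steps that the sources used here do not give; its columns followed their own arrays (r 0.9953 to 0.9998), though that of TKO_29 replicate 1 hardly differed from another array (0.9962 and 0.9963).

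Control spots and outlier spots were dropped (263 of 55681 probes), saturated spots kept, and log2 processed signals scaled to each array's 75th percentile over 19178 probes well above background on all arrays. Probes were named by accession through RefSeq (GRCm38.p6), and 49.4% got a symbol. Differences were tested in limma 3.58.1 (R 4.3.3; Python 3.11.15 for parsing) with Benjamini-Hochberg adjustment over 28267 probes, with 3 residual degrees of freedom for arrays and 1 for line averages, where WT is taken to vary like the TKO lines. Intervals are unadjusted 95% intervals. The code was tested on simulated arrays. The normexp alternative (offset 50) used the median spot signal, since the files hold no mean signal.

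The members and lists were chosen with earlier results of these data known. From the lists, members called the same way in both lines are named, or else the one with the largest mean difference (1 gene is not reported here); the 2 genes nearest in pattern were sought per member. Where no array of a line detected a probe above background, folds are bounds, and where every array of a line was saturated, no fold is given. The number of arrays limits the precision.

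Samples were not paired by replicate number. Deviations of replicate 1 correlated at -0.427 (TKO_26 with TKO_29), 0.378 (TKO_26 with WT) and -0.324 (TKO_29 with WT). Replicate 1 was the dimmer array in WT (75th percentile 500.6 against 885.7) and TKO_26 (573.9 against 1000.5), but the brighter in TKO_29 (2198.0 against 1127.0). Brightness therefore split the lines as the signs did, and the correlations cannot show whether a replicate number marks a shared batch.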

Additional observations from a re-analysis of the deposited data

Results flagged for a closer look

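Tet3 probe A_55_P2175260 moved in opposite directions in the TKO lines relative to WT, with both TKO_26 arrays above and both TKO_29 arrays below the WT arrays. The TKO_29 minus TKO_26 difference was -1.67, which did not pass (limma adjusted p = 0.0991).

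Uhrf1 probe A_55_P2035286 read in the same order, but TKO_29 replicate 1 was saturated, on the array with the lowest ceiling, so the order is not established. As read, its TKO_29 minus TKO_26 difference was -0.62 (limma adjusted p = 0.151), and its TKO_29 difference from WT was 0.26 with the authors' matrix values and 0.22 with quantile normalisation, against -0.36.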

How the results depend on the processing

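The counts of 19 probes that passed are given per comparison under the alternatives that moved them by over 1.5 times; the others gave 4 to 7 in TKO_26 and 4 to 7 in TKO_29. On line averages (0) they were 2 with the authors' matrix values, 1 with an intensity trend, 5 with line as a random block and 0 to 1 when 1 array was left out (1 without TKO_26 replicate 1). In TKO_26 (5) they were 2 with normexp, 2 with the matrix, 0 with no filter on dim probes and 3 to 5 with 1 array left out (3 without either WT array). In TKO_29 (6) they were 2 with no filter and 3 to 6 with 1 array left out (3 without TKO_29 replicate 1). Between the TKO lines (0) they were 0 to 1 (1 without TKO_26 replicate 2). With the replicate block they were 4 in TKO_26, 6 in TKO_29 and 0 between the TKO lines. On line averages, with line as a random block too, they were 2. Whether samples of the same replicate number share a batch was not established. Of the single-probe differences under alternatives, 441 kept direction and side of the threshold, 39 lost it, 8 gained it and 38 changed sign, all 38 of differences that had not passed. Signs turned with the 75th percentile over all probes in TKO_26 for Tet1 A_51_P512172 (0.01), Tdg A_55_P2121364 (0.03), Dnmt1 (0.03) and Uhrf1 A_66_P120074 (0.01). With normexp they turned for Tdg A_55_P2121364 (0.12) and Uhrf1 A_55_P2035286 (-0.07) in TKO_26 and for Tdg A_66_P116265 (-0.31) in TKO_29. With quantile normalisation they turned for Tdg A_55_P2121364 in TKO_26 (0.05) and for Uhrf1 A_55_P2035286 (0.22) and A_66_P120074 (0.07) in TKO_29. With the matrix they turned in TKO_26 for Tet1 A_51_P512172 (0.07), Tdg A_55_P2121364 (0.28), Dnmt1 (0.04), Dnmt3b A_55_P2130535 (0.03), Dnmt3b A_55_P2008874 (-0.05) and Uhrf1 A_55_P2035286 (-0.05), and in TKO_29 for Tdg A_55_P2121364 (0.10), Uhrf1 A_55_P2035286 (0.26) and Uhrf1 A_66_P120074 (0.05). With 1 array left out, ranges in TKO_26 were -0.37 to 0.21 for Tet1 A_51_P512172, -0.11 to 0.01 for Tdg A_55_P2121364, -0.09 to 0.41 for Tdg A_66_P116265, -0.32 to 0.21 for Dnmt1, -0.62 to 0.11 for Dnmt3b A_55_P2130535 and -0.53 to 0.38 for Uhrf1 A_66_P120074. In TKO_29 they were -0.06 to 0.52 for Tet1 A_51_P512172, -0.15 to 0.34 for Tdg A_66_P116265, -0.14 to 0.34 for Dnmt1, -0.11 to 0.84 for Dnmt3b A_55_P1975903, -0.07 to 0.80 for Dnmt3b A_55_P2008874 and -0.37 to 0.05 for Uhrf1 A_66_P120074. The Dnmt3b values, except that of A_55_P2008874 in TKO_26, rest on saturated spots, as do those of Uhrf1 A_55_P2035286 in TKO_29. No direction is read from any of these values. The cause was not tested. The median over all tested probes moved to -0.292 in TKO_29 with normexp, where 29.6% of all calls were higher against 46.5% as reported; in TKO_26 these shares were 33.8% and 44%. On line averages the share was 35.3% with the matrix, 32.3% with the trend and 39.5% with line as a random block, against 14.7% as reported. Saturation limits Dnmt3b, and low signal over background limits Tet3 A_52_P491273 and A_51_P199339.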
